A study of Homo sapiens with 8 samples.

Results

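Pyrimidine and deoxynucleotide synthesis was followed through 9 enzyme genes, chosen by name: CAD (ENSG00000084774.9), DHODH (ENSG00000102967.7), UMPS (ENSG00000114491.9), CTPS1 (ENSG00000171793.9), TYMS (ENSG00000176890.11), RRM1 (ENSG00000167325.10), RRM2 (ENSG00000171848.9), DUT (ENSG00000128951.9) and TK1 (ENSG00000167900.7). They are 9 of 57820 genes in the tables, and all 9 were among the 11218 genes with enough reads to test. RNA came from A549, an established human lung adenocarcinoma line, and each of 4 groups had 2 libraries, replicates A and B. In the first experiment the groups were cells with an empty vector and cells with a vector overexpressing MGA, a MAX partner that binds DNA. In the second they received siNC, a negative control siRNA, or siMYC, an siRNA that silences MYC. What promoter drives the vector, how long cells were treated and whether the vector cells were a pool or a clone is not given in these sources. No label says that replicates came from separate cultures, so the p-values reflect the spread between these libraries alone, and that spread may be technical.

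Cells make the pyrimidine UMP from small precursors and convert it to CTP for RNA. For DNA, ribonucleotide reductase turns ribonucleotides into deoxynucleotides, and thymidylate is made from dUMP or salvaged from thymidine. Many of these enzymes are most abundant in cells that copy their DNA, and CAD is a textbook MYC target. MGA competes for the E-box letters CACGTG that MYC and MAX bind. The comparisons therefore ask how these genes stood with more MGA and with less MYC.

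Total expected counts ran from 820428 to 2129006 per library. The transcript of MGA made up 9.54% and 9.68% of reads in the MGA libraries and at most 0.0124% elsewhere, with a log2 fold change of 9.98 (adjusted p = 1.2e-32). MYC fell with siMYC (log2 fold change -2.15, adjusted p = 2.9e-12), and its log2 fold change with MGA was 0.43 (adjusted p = 0.025). Of 5 epithelial markers none was called with MGA, and with siMYC KRT8 (log2 fold change -0.22) and KRT18 (-0.36) fell and KRT19 (1.23) rose. KRT8 and KRT18 were high in all 8 libraries (at least 992.6 TPM), whereas EPCAM stood at 0 or 1 read in the 4 vector libraries and at 8 to 17 reads in the 4 siRNA libraries. KRT19 ran from 9.18 to 16.1 TPM in the vector libraries, was at 58.5 and 47.4 TPM with siNC and at 155 and 119 TPM with siMYC, and CDH1 ran from 6.16 to 49.95 TPM over the 8 libraries. Summed fibroblast markers were at 10.9 and 20.1 TPM with siNC and at 85.8 and 87.2 TPM with siMYC, the latter nearly all COL1A1. The sum was 11.8 and 15.2 TPM with the empty vector and 8.09 and 24.1 TPM with MGA. The 2 endothelial markers in the tables were at 0 in every library, and leukocyte markers, with 3 of 4 at 0 throughout, reached at most 2.17 TPM. What part these shifts have in the results below was not tested. In bulk RNA, fewer cells of a kind and less RNA per cell cannot be told apart.

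With MGA, 3 of the 9 genes fell: CAD to 50.6% of the empty vector level, CTPS1 to 52.7% and RRM2 to 47.7%. With siMYC, 8 of the 9 fell, all but CTPS1, to between 38.0% (DHODH) and 66.4% (TK1) of the siNC level. No member rose in either comparison. Among all genes tested, 4.0% fell and 4.96% rose with MGA, and 20.0% fell and 19.0% rose with siMYC. The median log2 fold change of the members was -0.59 with MGA and -0.90 with siMYC, beside 0.011 over all genes in each comparison. Both treated libraries lay below both control libraries for 8 of 9 members with MGA and for 9 of 9 with siMYC, while the same held for 25.0% and 33.6% of all genes. These calls are from edgeR on read counts, at a Benjamini-Hochberg adjusted p under 0.05. With an offset for effective length, the length that the authors' software estimates for the transcripts in use, 1 member fell with MGA and 5 with siMYC, while calls over all genes went from 1005 to 174 and from 4370 to 1696. On TPM, which is scaled to length, limma called 0 and 1.

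**Figure D1:**
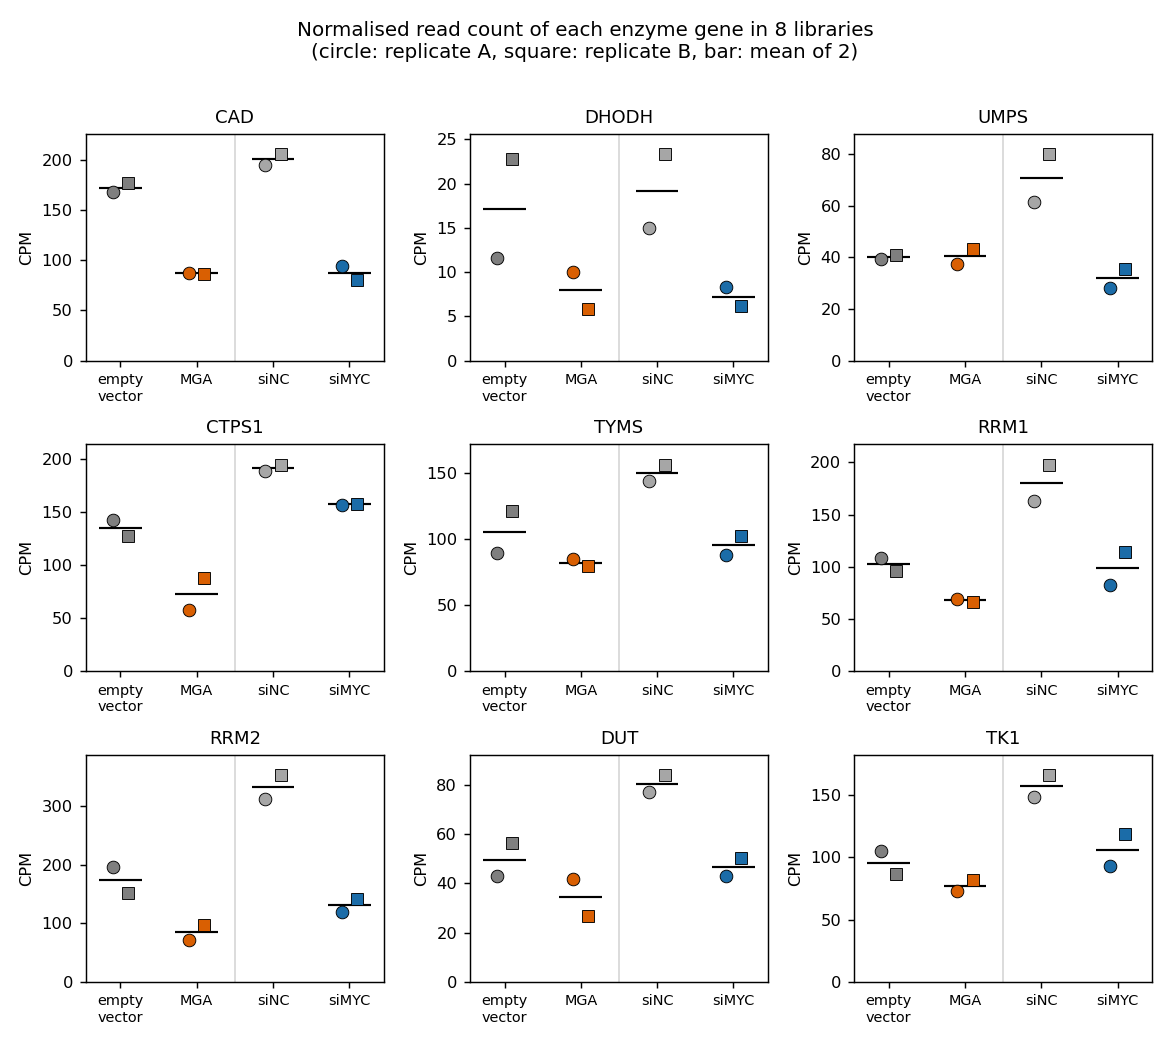
Normalised read count (CPM, scaled by TMM, linear axis from 0) of each enzyme gene in the 8 libraries. Circles are replicate A, squares replicate B and bars the mean of 2; in 8 panels both orange MGA points lie below both empty vector points, the exception being UMPS, and in all 9 both siMYC points lie below both siNC points.

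**Figure D2:**
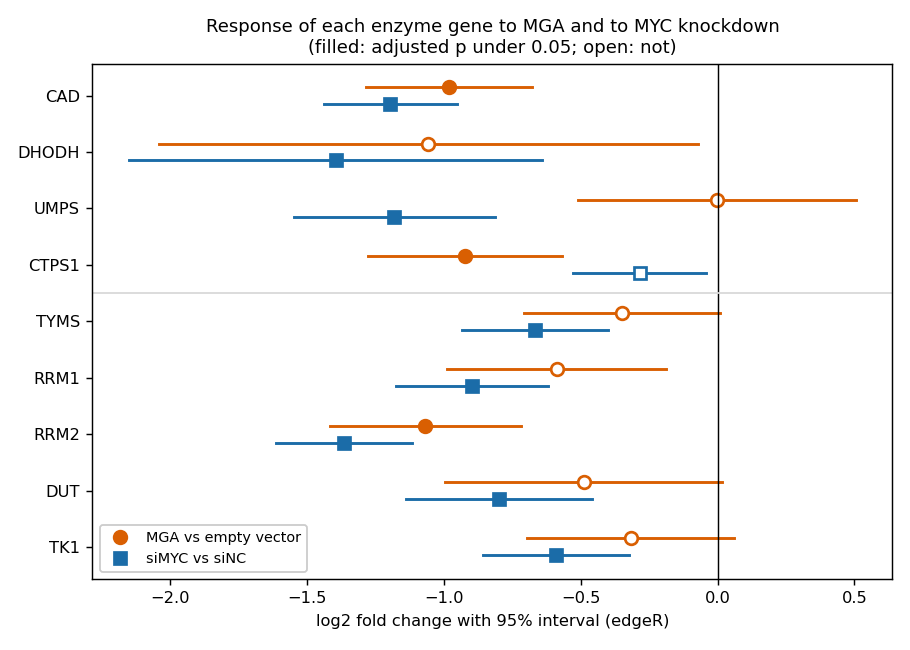
Log2 fold change of each enzyme gene (horizontal axis) with its 95% interval from edgeR, for MGA against empty vector (orange circles) and siMYC against siNC (blue squares). Filled symbols passed an adjusted p of 0.05; the UMPS interval with MGA spans 0 while that with siMYC runs from -1.55 to -0.81, and CTPS1 shows the reverse order of effects.

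Of the 4 enzymes that lead to UMP and CTP, 2 fell with MGA (CAD and CTPS1) and 3 with siMYC (CAD, DHODH and UMPS). Upstream stretches of 3 of them are shown because MYC, MAX and MGA are E-box factors and these genes moved with one or both treatments. All are from RefSeq promoters on GRCh38.p14, 5′ to 3′, with matches to the letters searched in capitals.
CAD, chr2:27217119-27217368, plus strand: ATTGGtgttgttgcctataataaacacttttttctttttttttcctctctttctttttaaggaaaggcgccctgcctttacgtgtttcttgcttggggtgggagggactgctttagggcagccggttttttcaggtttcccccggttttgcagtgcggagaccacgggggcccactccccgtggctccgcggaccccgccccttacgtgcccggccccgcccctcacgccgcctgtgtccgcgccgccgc
DHODH, chr16:72008573-72008602, plus strand: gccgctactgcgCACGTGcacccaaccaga
UMPS, chr3:124730202-124730365, plus strand: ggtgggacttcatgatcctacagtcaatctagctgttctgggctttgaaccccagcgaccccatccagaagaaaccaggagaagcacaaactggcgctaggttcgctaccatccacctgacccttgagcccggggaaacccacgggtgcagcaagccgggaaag
The capitals mark, in CAD, a CCAAT box read on the other strand, 250 bases before the start. In DHODH they mark an E-box that begins 159 bases before the start. UMPS held none of the letters searched, nor did either start of CTPS1.

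CAD, the multifunctional enzyme that begins pyrimidine synthesis, had 168 and 176 CPM with the empty vector and 87.6 and 86.5 CPM with MGA. The siNC libraries had 195 and 205 CPM and the siMYC libraries 93.8 and 79.8 CPM. In both experiments the treated libraries sat well below the controls, and replicates lay close together. CAD fell 1.97-fold with MGA (log2 fold change -0.98, SE 0.15, adjusted p = 5e-05) and 2.29-fold with siMYC (log2 fold change -1.20, SE 0.12, adjusted p = 6.1e-09). Its size with MGA was kept per length (-1.07 with the length offset), but the adjusted p was then 0.081.

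DHODH, the mitochondrial enzyme that makes orotate, was the least abundant member and rests on few reads. It had 10 and 19 reads with the empty vector and 11 and 5 with MGA, which is 11.6 and 22.8 CPM against 10.04 and 5.84 CPM. In the siRNA libraries it had 21 and 40 reads with siNC and 18 and 10 with siMYC, or 15.0 and 23.3 CPM against 8.27 and 6.14 CPM. The groups did not overlap in either experiment, though with the empty vector and with siNC the replicates differed widely. DHODH fell with siMYC (log2 fold change -1.40, SE 0.37, adjusted p = 0.0034) and did not pass with MGA (-1.06, SE 0.48, adjusted p = 0.18). Without siNC replicate B the siMYC value was -1.04 and no longer passed (adjusted p = 0.12).

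UMPS, which turns orotate into UMP, had 39.4 and 40.8 CPM with the empty vector and 37.4 and 43.2 CPM with MGA. It had 61.4 and 79.9 CPM with siNC and 28.0 and 35.6 CPM with siMYC. The MGA range enclosed the empty vector range, whereas both siMYC libraries were below both siNC libraries. With siMYC, UMPS fell 2.27-fold (log2 fold change -1.18, SE 0.18, adjusted p = 5.9e-06). With MGA the log2 fold change on counts was -0.0017 (SE 0.25, 95% interval -0.51 to 0.51, adjusted p = 1). At 34 to 41 reads per library, a change within those bounds is not excluded.

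CTPS1, which aminates UTP to CTP, showed the opposite order. It had 142 and 127 CPM with the empty vector against 57.5 and 87.6 CPM with MGA, and 189 and 195 CPM with siNC against 157 and 158 CPM with siMYC. The groups were apart in both experiments, with the wider gap, and the wider spread between replicates, under MGA. CTPS1 fell 1.90-fold with MGA (log2 fold change -0.92, SE 0.17, adjusted p = 0.00073), and did not pass with siMYC (-0.29, SE 0.12, adjusted p = 0.058). Without MGA replicate A the MGA value was -0.62 (adjusted p = 0.086). Effective length moved with this result: it was 2743 and 2277 bases with the empty vector and 1260 and 1893 with MGA, and the length offset took the fold change to -0.24 (adjusted p = 0.51).

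On read counts the 5 deoxynucleotide enzymes had negative log2 fold changes in both comparisons, but not all were called. All 5 fell with siMYC, and RRM2 alone of the 5 fell with MGA. Sequence near the starts of 5 of them is shown, since promoters of S-phase genes often carry E2F letters or CCAAT boxes near the start. Credits and capitals are as above.
RRM1, chr11:4094645-4094674, plus strand: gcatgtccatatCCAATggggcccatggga
RRM2, chr2:10122619-10122729, plus strand: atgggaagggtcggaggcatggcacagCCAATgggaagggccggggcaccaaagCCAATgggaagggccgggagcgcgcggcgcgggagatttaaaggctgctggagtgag
TYMS, chr18:657603-657632, plus strand: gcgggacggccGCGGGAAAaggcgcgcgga
DUT, chr15:48332152-48332181, plus strand: ctgGCGGGAAAtttcggtTTTGGCGCgctc
TK1, chr17:78187081-78187110, minus strand: ggccggctcgtgATTGGccagcacgccgtg
RRM2 held 3 CCAAT boxes, at 123, 93 and 66 bases before the first of its 2 listed starts, and the latter 2 lie in the stretch shown, which GENCODE v29 annotates as coding in longer RRM2 transcripts. TK1 held 2 CCAAT boxes on the other strand, at 77 and 46 bases before its second listed start, the nearer of which is shown. RRM1 held 1, 28 bases before the start. E2F letters stood at 39 bases before the start of TYMS (GCGGGAAA) and at 42 and 27 bases before the fourth listed start of DUT (GCGGGAAA and TTTGGCGC).

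RRM1 encodes the large, catalytic subunit of ribonucleotide reductase. It had 109 and 95.9 CPM with the empty vector, 69.3 and 66.6 with MGA, 163 and 198 with siNC and 82.7 and 114 with siMYC. In each experiment the treated libraries were below the controls. RRM1 fell with siMYC (log2 fold change -0.90, SE 0.14, adjusted p = 5.4e-06), and its MGA value on counts lay at the threshold (-0.59, SE 0.20, adjusted p = 0.057). Its effective length was 2840 and 2762 bases with the empty vector and 1812 and 2657 with MGA. With the length offset RRM1 had -0.23 with MGA (adjusted p = 0.71) and -0.89 with siMYC (adjusted p = 0.021). It passed with MGA in 7 of 15 alternatives, with adjusted p from 0.0093 to 0.73 over all 15.

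RRM2 encodes the small subunit that carries the enzyme's radical and is limiting in many dividing cells. It had 197 and 152 CPM with the empty vector, 72.1 and 97.0 with MGA, 313 and 353 with siNC and 119 and 142 with siMYC. Both gaps were wider than the spread between replicates. RRM2 fell 2.10-fold with MGA (log2 fold change -1.07, SE 0.17, adjusted p = 0.00011) and 2.57-fold with siMYC (-1.36, SE 0.12, adjusted p = 9.3e-10). RRM2 was the only member to pass with the length offset in both comparisons, at -1.04 with MGA (adjusted p = 0.038) and -1.54 with siMYC (adjusted p = 0.00054).

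TYMS makes thymidylate from dUMP. Its values were 89.1 and 121 CPM with the empty vector, 84.9 and 79.4 with MGA, 144 and 156 with siNC and 88.2 and 102 with siMYC. The MGA libraries lay just below the lower empty vector library, and the siMYC libraries well below siNC. TYMS fell with siMYC (log2 fold change -0.67, SE 0.13, adjusted p = 0.00016) and had -0.35 with MGA (SE 0.17, adjusted p = 0.24). With the length offset TYMS passed in neither, at -0.60 with siMYC (adjusted p = 0.059) and -0.14 with MGA (adjusted p = 0.81). It overlaps ENOSF1 on the other strand, whose count reached at most 48 reads in a library, and the counting is not stated to use strand.

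DUT, which removes dUTP and so supplies dUMP, had 42.8 and 56.4 CPM with the empty vector, 42.0 and 26.9 with MGA, 77.2 and 84.0 with siNC and 43.2 and 50.3 with siMYC. MGA replicate A nearly reached empty vector replicate A, while the siRNA groups were far apart. DUT fell with siMYC (log2 fold change -0.80, SE 0.17, adjusted p = 0.00032) and had -0.49 with MGA (SE 0.25, adjusted p = 0.24). With the length offset DUT had -0.82 with siMYC (adjusted p = 0.03) and -0.20 with MGA (adjusted p = 0.76). Its fall with siMYC was not called with DESeq2, nor were those of DHODH and TK1.

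TK1, the cytosolic kinase that salvages thymidine, had 105 and 86.3 CPM with the empty vector, 73.0 and 81.8 with MGA, 149 and 166 with siNC and 92.8 and 119 with siMYC. The MGA gap was small beside the spread between replicates, and the siRNA gap was not. TK1 fell with siMYC (log2 fold change -0.59, SE 0.13, adjusted p = 0.00062) and had -0.32 with MGA (SE 0.18, 95% interval -0.70 to 0.06, adjusted p = 0.32). Its effective length was 1397 and 1360 bases with siNC and 1064 and 1073 with siMYC. With the length offset the siMYC value was -0.19 (adjusted p = 0.55), and on the TPM scale, log2(TPM + 0.5), it was -0.04 (adjusted p = 0.91).

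**Figure D3:**
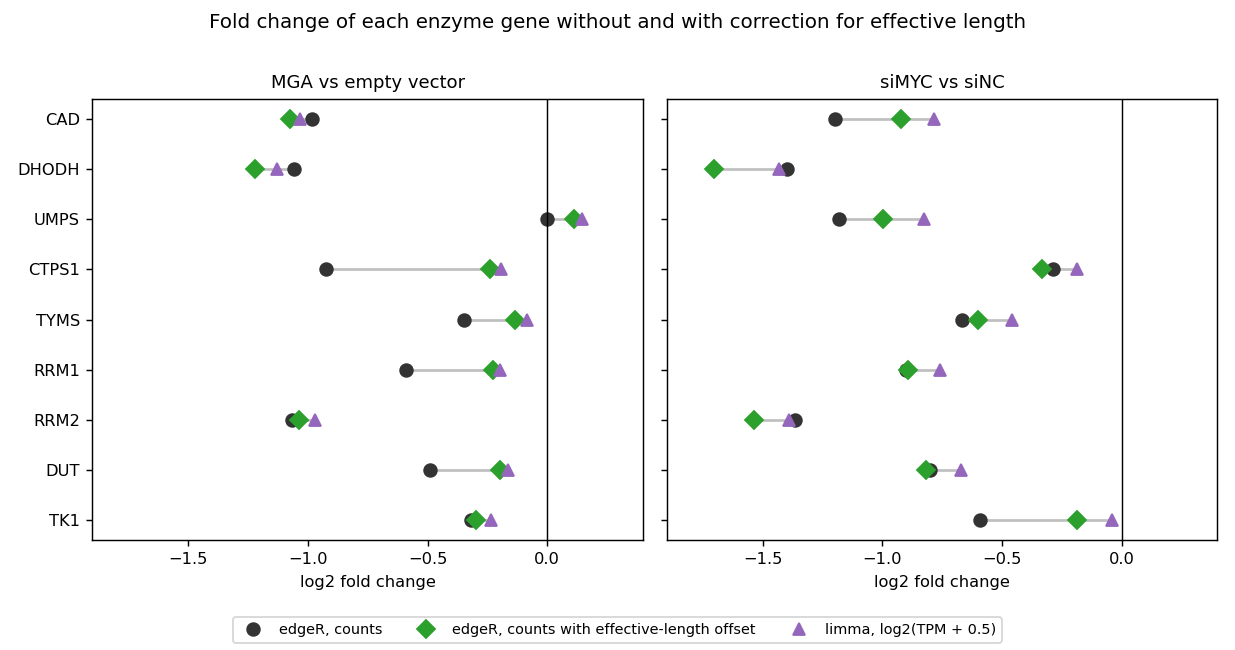
Log2 fold change of each enzyme gene in both comparisons, from edgeR on counts (black circles), edgeR with an effective-length offset (green diamonds) and limma on log2(TPM + 0.5) (purple triangles). CTPS1 moves from -0.92 to -0.24 and -0.19 with MGA and TK1 from -0.59 to -0.19 and -0.04 with siMYC, whereas RRM2 stays between -0.97 and -1.54 in all of them.

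Whether a gene responded differently to MGA and to siMYC was tested directly, as the difference between the log2 fold changes. The test called 2 of the 9 members, beside 18.5% of all genes tested. For UMPS the difference was 1.18 (SE 0.31, 95% interval 0.55 to 1.81, adjusted p = 0.0073), a smaller fall with MGA. For CTPS1 it was -0.64 (SE 0.21, 95% interval -1.07 to -0.21, adjusted p = 0.034), a larger fall with MGA. The other 7 had differences of 0.21 to 0.34 with intervals that spanned 0, from -0.18 to 0.61 for CAD at the narrowest and -0.93 to 1.61 for DHODH at the widest. Those intervals do not show that the responses were equal. The ratio of CTPS1 to UMPS reads was 3.62 and 3.12 with the empty vector, 1.54 and 2.03 with MGA, 3.07 and 2.44 with siNC and 5.61 and 4.43 with siMYC. It was thus below its control in both MGA libraries and above it in both siMYC libraries. The CTPS1 difference was lost with the length offset (0.09, adjusted p = 0.86), and the UMPS difference kept its size (1.11) but not its call (adjusted p = 0.23).

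Per length, in TPM, the order of the enzymes changed with treatment. With siNC, RRM2 led at 225 and 254 TPM, above TK1 and TYMS, which overlapped each other. CTPS1 and DUT followed and overlapped, then RRM1 at 92.2 and 96.0 TPM, CAD and UMPS, which overlapped, and DHODH at 11.5 and 25.7 TPM. With siMYC, RRM2 stood at 80.8 and 102 TPM and took rank 4, overlapping DUT, while TK1 led at 140 and 174 TPM. In the empty vector libraries TK1, TYMS, RRM2 and CTPS1 each overlapped the next in the order, and RRM2 had 69.4 and 93.4 TPM. With MGA, RRM2 had 35.8 and 46.5 TPM and took rank 6, overlapping RRM1 and UMPS, and TYMS and TK1 led. The ratio of RRM2 to RRM1 in TPM was 1.69 and 1.43 with the empty vector and 0.645 and 1.28 with MGA, and 2.75 and 2.34 with siNC and 1.74 and 1.53 with siMYC. Both treated libraries were below both controls each time.

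The second small subunit of ribonucleotide reductase, RRM2B, known as a p53 target, moved against RRM2 in the MGA experiment. RRM2B had 104 and 79.1 CPM with the empty vector and 149 and 152 with MGA, and 87.9 and 89.2 with siNC and 86.9 and 80.4 with siMYC. It rose with MGA (log2 fold change 0.71, SE 0.15, adjusted p = 0.0034) and had -0.08 with siMYC (SE 0.14, adjusted p = 0.69), and these responses differed by 0.79 (adjusted p = 0.0078). There were 1.89 and 1.92 RRM2 reads per RRM2B read with the empty vector and 0.485 and 0.638 with MGA, so RRM2B had the more reads of the pair only in the MGA libraries. With siMYC the ratio was 1.37 and 1.76, against 3.56 and 3.95 with siNC. The rise of RRM2B was not called without empty vector replicate B (0.52, adjusted p = 0.13) or with the length offset (0.75, adjusted p = 0.062).

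Genes for the same reactions as other members went their own ways. TK2, the mitochondrial thymidine kinase, had 22.1 and 22.7 CPM with siNC and 47.8 and 55.2 with siMYC, and 22.0 and 20.4 with the empty vector against 21.0 and 10.5 with MGA. TK2 rose with siMYC (log2 fold change 1.18, SE 0.21, adjusted p = 4.4e-05), where TK1 fell, and had -0.37 with MGA (adjusted p = 0.58). CTPS2, the second CTP synthetase, rested on 17 to 95 reads and passed in neither comparison, with -0.53 for MGA (adjusted p = 0.35) and 0.37 for siMYC (adjusted p = 0.15).

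**Figure D4:**
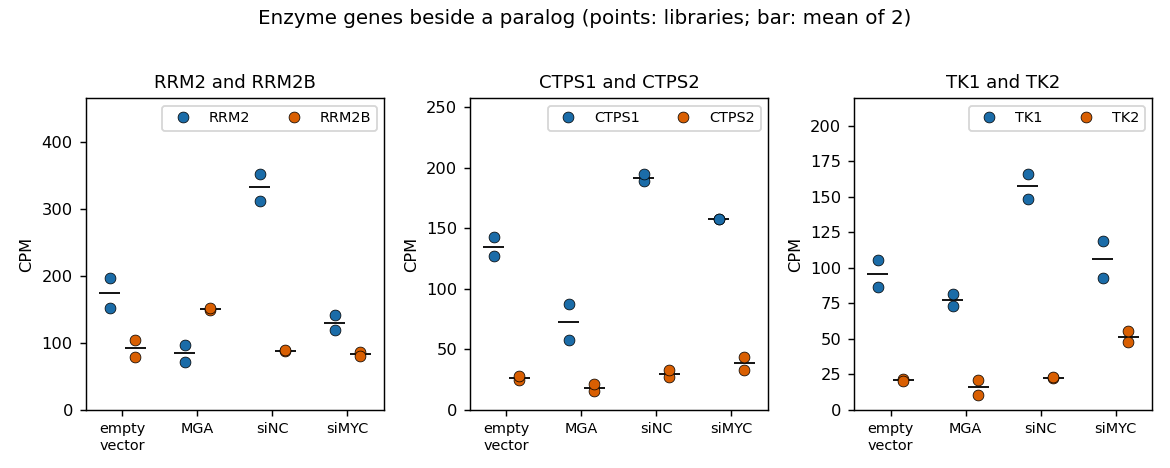
Normalised read counts (CPM, linear axis from 0) of RRM2, CTPS1 and TK1 (blue) beside RRM2B, CTPS2 and TK2 (orange), with 1 point per library and a bar at the mean of 2. RRM2B lies above RRM2 in the MGA group alone, and TK2 is highest with siMYC.

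Of 38 other genes of pyrimidine and deoxynucleotide metabolism in 7 lists, 35 could be tested. With MGA 2 fell and 1 rose, with a median log2 fold change of -0.10, and with siMYC 7 fell and 3 rose, with a median of -0.16. Of all genes tested, 4.0% fell and 4.96% rose with MGA, and 20.0% fell and 19.0% rose with siMYC, so the counts that fell are near the share over all genes. Leaving out any of the 4 vector libraries left 1 that fell with MGA, and without empty vector replicate B none rose. Among 7 further enzymes on the way to UTP and CTP none passed with MGA, and NME1 (log2 fold change -1.97, adjusted p = 1e-12) and NME4 (-0.76, adjusted p = 1.7e-05), which are nucleoside diphosphate kinases, fell with siMYC. NME1 shares reads with NME2 and with a read-through of both that held 67.8% to 82.2% of the reads of the 3 genes. Summed, the 3 fell with siMYC by 1.12 on the log2 scale (adjusted p = 1.8e-10) and had -0.12 with MGA (adjusted p = 0.5). In the dTTP branch 2 of 4 genes fell with siMYC and none with MGA, namely DTYMK, the thymidylate kinase (-1.01, adjusted p = 1.1e-05), and SHMT1, a folate enzyme (-0.65, adjusted p = 0.0054).

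Of 4 partners of ribonucleotide reductase, RRM2B alone passed in either comparison, and the thioredoxin and glutaredoxin genes that keep the enzyme reduced did not. Among 6 salvage kinases 1 fell with siMYC, UCK2, which phosphorylates uridine and cytidine (-1.16, adjusted p = 1.8e-07), and TK2 rose; none passed with MGA. Of 9 genes that clean up or dephosphorylate nucleotides, 2 fell with MGA: SAMHD1, which degrades dNTPs (-0.81, adjusted p = 0.00075), and DCTPP1, which hydrolyses dCTP (-0.64, adjusted p = 0.04). SAMHD1 had 211 and 203 CPM with the empty vector and 140 and 91.1 with MGA, still above all siRNA libraries. It had 40.0 and 36.7 CPM with siNC and 36.3 and 31.3 with siMYC. With siMYC, DCTPP1 fell (-1.37, adjusted p = 2.1e-07) and the nucleotidase NT5C2 rose (0.35, adjusted p = 0.024). None of 3 testable breakdown enzymes passed. Of 2 testable nucleoside transporters SLC29A1 fell (-0.60, adjusted p = 0.0018) and SLC29A3 rose (0.71, adjusted p = 0.04) with siMYC.

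**Figure D5:**
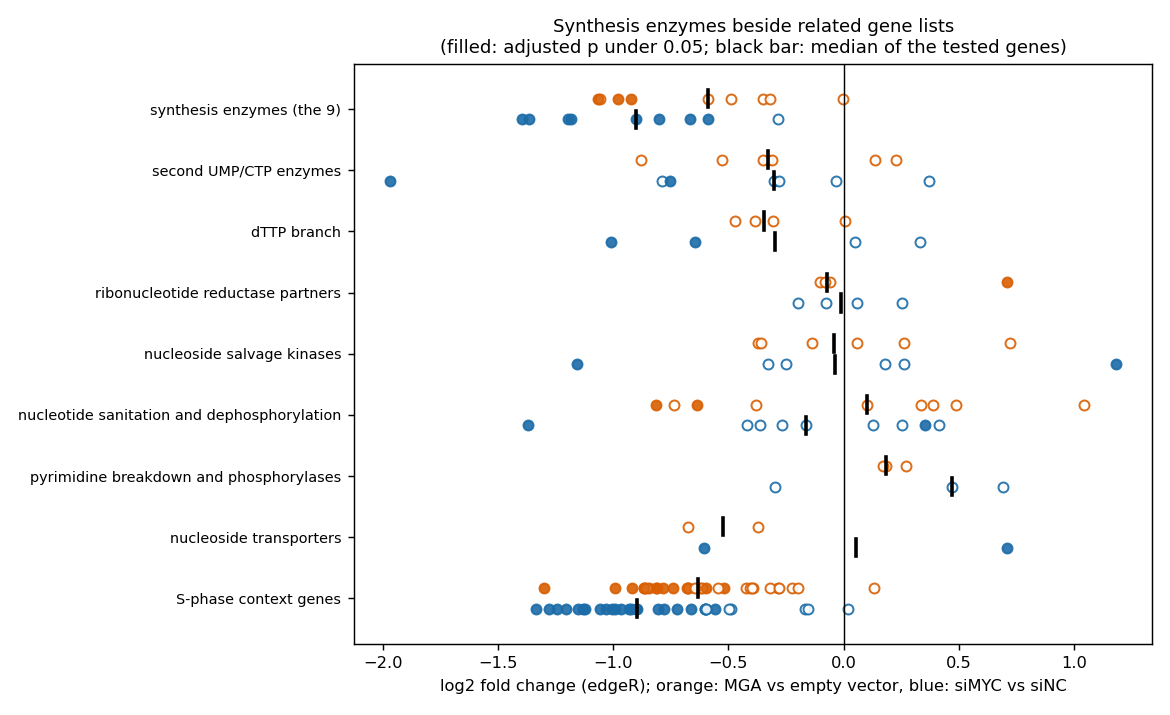
Log2 fold change (edgeR) of the 9 synthesis enzymes, of 7 lists of related genes and of 30 S-phase genes, with orange for MGA against empty vector and blue for siMYC against siNC. Filled points passed an adjusted p of 0.05 and black bars are medians; the synthesis enzymes and S-phase genes have medians of -0.59 and -0.63 with MGA and -0.90 in both with siMYC.

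Genes of DNA replication and the S-phase transition moved beside the enzymes. Of 30 such genes 14 fell with MGA and 24 with siMYC, beside 4.0% and 20.0% of all genes tested. None of the 30 rose, and their median log2 fold changes were -0.63 and -0.90. Their summed CPM was 2347 and 2412 with the empty vector, 1516 and 1559 with MGA, 3381 and 3621 with siNC and 1739 and 2105 with siMYC. The 9 enzymes summed to 879 and 904, 534 and 575, 1306 and 1460, and 713 and 807 CPM in the same groups. Enzyme reads were thus between 35.2% and 41.0% of the S-phase sum in every library, and what part the number of S-phase cells has in the fall of the enzymes was not tested. The count of 14 with MGA was 5 to 7 when any of the 4 vector libraries was left out. Across the 8 libraries the genes whose log2 CPM followed the mean of the 9 enzymes most closely, among 6273 candidates, were SUPT16H, a histone chaperone subunit (r = 0.99), MAD2L1, a spindle checkpoint gene, GINS1, a replication helicase subunit, ATAD2, a chromatin ATPase, and NCAPD3, a condensin subunit, the last at r = 0.98. These 8 points share 2 experiments and their treatments. Of the members themselves RRM2 (r = 0.96) and RRM1 (r = 0.95) lay closest to the mean of the other 8, and DHODH (r = 0.71) and CTPS1 (r = 0.72) furthest.

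The letters searched in the 15 RefSeq starts of the 9 genes, on both strands from 250 bases before to 50 bases after each start, were the E-box CACGTG, the E2F forms TTTCCCGC, TTTGGCGC, TTTCGCGC and TTTGCCGC, the T-box AGGTGTGA and CCAAT. No match overlapped a match to other letters. An E-box was found at 1 of the 15 starts (7.26% of all 35116 promoters hold one), E2F letters at 2 (3.31%), CCAAT at 6 starts of 5 genes (34.6%) and the T-box letters at none (0.98%). The E-box gene, DHODH, is 1 of the 8 that fell with siMYC. Within the stretch searched, RRM2 and CAD, which fell in both comparisons, held CCAAT letters alone. So did RRM1 and TK1, which fell with siMYC and were not called with MGA. UMPS and CTPS1, whose responses differed, held none. Sequence more than 250 bases before or 50 bases after a start was not searched, so sites there would have been missed.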

How the data were processed

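Poly(A)-selected RNA of A549 cells was sequenced in 8 libraries, 2 in each of 4 groups taken from the labels. Per the submitters' processing notes, reads were handled with STAR and RSEM on hg19; which versions and annotation is not given in the sources used here. Per the file headers, the authors' tables hold expected counts, TPM, FPKM (not used) and an effective length in bases for each gene. Expected counts are RSEM's estimates, which divide a read that fits several genes. Effective length is RSEM's estimate for the transcripts in use, not a fixed annotated length, and it varies between libraries. Whether counting used strand is not stated.

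Expected counts were rounded, filtered with filterByExpr (minimum count 10, minimum total 15), TMM-scaled and tested by quasi-likelihood F tests in 1 edgeR 4.0.16 fit (R 4.3.3) of all 8 libraries, with 4 residual degrees of freedom. P-values were adjusted by Benjamini-Hochberg over 11218 genes and called below 0.05. CPM are TMM-scaled. With 2 libraries a group, the smallest p of an exact permutation test is 0.333, and none is given. Replicates of each group differed by more than sampling noise (chi-square per degree of freedom 1.13 to 1.85). Alternatives used DESeq2 1.42.0, limma 3.58.1 on log2(TPM + 0.5), other size factors, other filters, a replicate block and leaving out each library; 2 more were chosen after seeing the data, an effective-length offset and a sum of the NME1 and NME2 genes. The scripts were tested on simulated data.

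The members and lists were chosen with earlier results of these data known. Named genes are the 9 members, up to 2 called genes per list with the smallest p, RRM2B, CTPS2, TK2, MGA, MYC and the 5 genes (average log2 CPM of at least 5) most correlated with the members' mean; 1 listed gene is not reported here. Promoter sequences came from RefSeq (GRCh38.p14) and hold no untranslated leader annotated in GENCODE v29, apart from sites of 30 bases.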

Additional observations from a re-analysis of the deposited data

Results flagged for a closer look

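The direct test of the difference between responses (edgeR, adjusted over all genes tested) was read for the 9 synthesis enzymes, RRM2B, CTPS2 and TK2. It called 4 of these genes and 18.5% of all genes tested, so calls among the 9 enzymes are near the share over all genes. The enzymes called were UMPS, with a log2 difference of 1.18 (adjusted p = 0.0073), and CTPS1, with -0.64 (adjusted p = 0.034). The other genes called were RRM2B, with 0.79 (adjusted p = 0.0078), and TK2, with -1.56 (adjusted p = 0.0079). A positive value means a higher level with MGA, relative to its control, than with siMYC. The comparisons share no libraries, and the cells of the experiments may differ in other ways. Control levels differed for some genes. SAMHD1 had 211 and 203 CPM with the empty vector but 40.0 and 36.7 with siNC. RRM2 had 197 and 152 CPM with the empty vector but 313 and 353 with siNC. What part such baseline differences have in these results was not tested. In the 18 alternatives UMPS passed in 15, RRM2B in 14, TK2 in 13 of the 17 that gave an adjusted p and CTPS1 in 9. TK2 rests on 9 reads in MGA replicate B, and without that library its difference was -1.19 (adjusted p = 0.058); without empty vector replicate A it was -1.49 (adjusted p = 0.056). For RRM2B the value without empty vector replicate B was 0.61 (adjusted p = 0.08). CTPS1 failed to pass in 6 of the 8 fits that left out a library, and without MGA replicate A it had -0.33 (adjusted p = 0.41). None of these 4 differences passed with an effective-length offset, with adjusted p from 0.22 to 0.86.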

How the results depend on the processing

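Member counts kept within 1.5 times of their reported value under other size factors, other filters and single-library omission, apart from the tests of difference between responses, which called 1 or 2 members when 1 library was left out. Leaving out 1 library left 2 to 3 members lower with MGA and 7 to 8 with siMYC. Other size factors and filters gave 3 or 4 with MGA and 7 or 8 with siMYC. With DESeq2, 5 members were lower with siMYC and 0 differed between responses. With limma on TPM, 0 members were lower with MGA, 1 with siMYC and 0 differed. With effective-length offsets the counts were 1, 5 and 0, and the CTPS1 difference changed sign, to 0.091. With the replicate block, 4 members were lower with MGA (RRM1 added, adjusted p = 0.043), 9 with siMYC (CTPS1 added, adjusted p = 0.048) and 2 differed. Over all genes tested, A minus B correlated at -0.02 between the vector groups and 0.13 between the siRNA groups. The labels do not say whether libraries of the same letter were handled together, and these correlations cannot settle it. Over all genes, those lower and higher with MGA were 449 and 556, but 628 and 387 with upper-quartile factors and 821 and 300 with library sizes alone, where the median log2 fold change was -0.116. Leaving out a vector library gave 402 to 474 genes called with MGA. DESeq2 called 358, limma on TPM 69 and length offsets 174; with siMYC the counts were 1971, 1229 and 1696, and for the difference 827, 344 and 555. The cause of these shifts was not tested. Depth limits DHODH most, at 5 to 40 reads per library.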
